A study of Homo sapiens with 40 samples.

Results

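The genes described here are 9 components of cytosolic nucleic acid sensing, CGAS, STING1, IFIH1, MAVS, TREX1, TBK1, IRF3, SAMHD1 and ADAR, out of the 19676 protein-coding genes of GENCODE 44. They were chosen by name and not by their values. A peak was linked to one of them if it lay within 2 kb of a start site of one of its protein-coding transcripts (promoter), overlapped its gene body, or had it as the closest protein-coding start site within 100 kb. The rule found 18 of the 51489 H3K27ac peaks and 18 of the 51457 CTCF peaks. It also found 4 of the 14886 enhancers listed for non-senescent cells and 1 of the 13076 listed for senescent cells. The farthest linked peaks lay 86660 bp (H3K27ac) and 88582 bp (CTCF) from a start site of ADAR, and no peak with one of the 9 genes as its closest start site lay beyond the limit.

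The values come from chromatin immunoprecipitation and sequencing (ChIP-seq) in EndoC-βH3 cells, a human beta cell line that is kept dividing by transgenes for SV40 Large T-antigen and hTERT. The non-senescent group was untreated, and the senescent group had received 4-hydroxytamoxifen for 3 weeks, which activates a CreER recombinase that cuts the transgenes out. Both groups are the same line, labelled wild type, so the loss of the transgenes, the exposure to 4-hydroxytamoxifen and the senescent state cannot be told apart. H3K27ac marks promoters and enhancers that are in use, and CTCF binds DNA at the anchors of loops. Both were measured in 3 libraries per state, and H3K4me1 and Rb in 2. The labels number the libraries within each state but do not say whether they came from separate cultures, so the p-values measure only the spread between these libraries.

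Cells recognize nucleic acids in the cytosol through separate routes for DNA and RNA. Double-stranded DNA binds the enzyme cGAS (CGAS), whose product cGAMP activates STING (STING1) on the endoplasmic reticulum. Long double-stranded RNA binds MDA5 (IFIH1), which signals through MAVS on mitochondria. Both routes meet at the kinase TBK1 and the transcription factor IRF3, which switches on type I interferon genes. TREX1, SAMHD1 and ADAR hold the routes back: TREX1 degrades cytosolic DNA, SAMHD1 hydrolyses deoxynucleotides and limits release of DNA from stalled replication forks, and ADAR edits adenosine to inosine in double-stranded RNA so that MDA5 does not bind it. Loss of function of TREX1, SAMHD1 or ADAR and gain of function of IFIH1 cause Aicardi-Goutières syndrome, and IFIH1 is a known type 1 diabetes risk locus.

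The deposited tables give 1 mean normalized count over the libraries of both states, 1 log2 fold change and 1 standard error (SE) per peak, and no value per library. Where a level per state is given below, it was worked out from the mean and the fold change, with equal weight for the states, and it carries no error of its own. In such bulk libraries, fewer cells with a mark and less of the mark per cell cannot be told apart. As a check of the labelled cell type, all 15 beta cell markers examined had a promoter H3K27ac peak, with a median of 6664 mean normalized counts. Promoter peaks were also found for 2 of 3 alpha cell, 1 of 3 exocrine and 1 of 3 immune markers, and for 0 of 3 fibroblast and 0 of 3 endothelial markers. GCG, PRSS1, CELA3A, PTPRC and CD14 had none.

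At the study's thresholds for H3K27ac (a fold change above 1.5 with an adjusted p under 0.05), 1 of the 18 linked peaks was gained and 3 were lost in senescent cells. The gained peak lay inside ADAR, and the lost peaks were the promoter peak of IFIH1, a peak at the end of STING1 and a peak at the end of ADAR. Over all H3K27ac peaks, 9.47% were gained and 13.1% were lost, so neither count stood far from the background. The median log2 fold change was 0.15 over the 18 peaks and 0.01 over all peaks. On the adjusted p alone, 5 of the 18 peaks were higher and 3 were lower in senescent cells, beside 39.2% of all peaks that passed it in either direction.

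**Figure D1:**
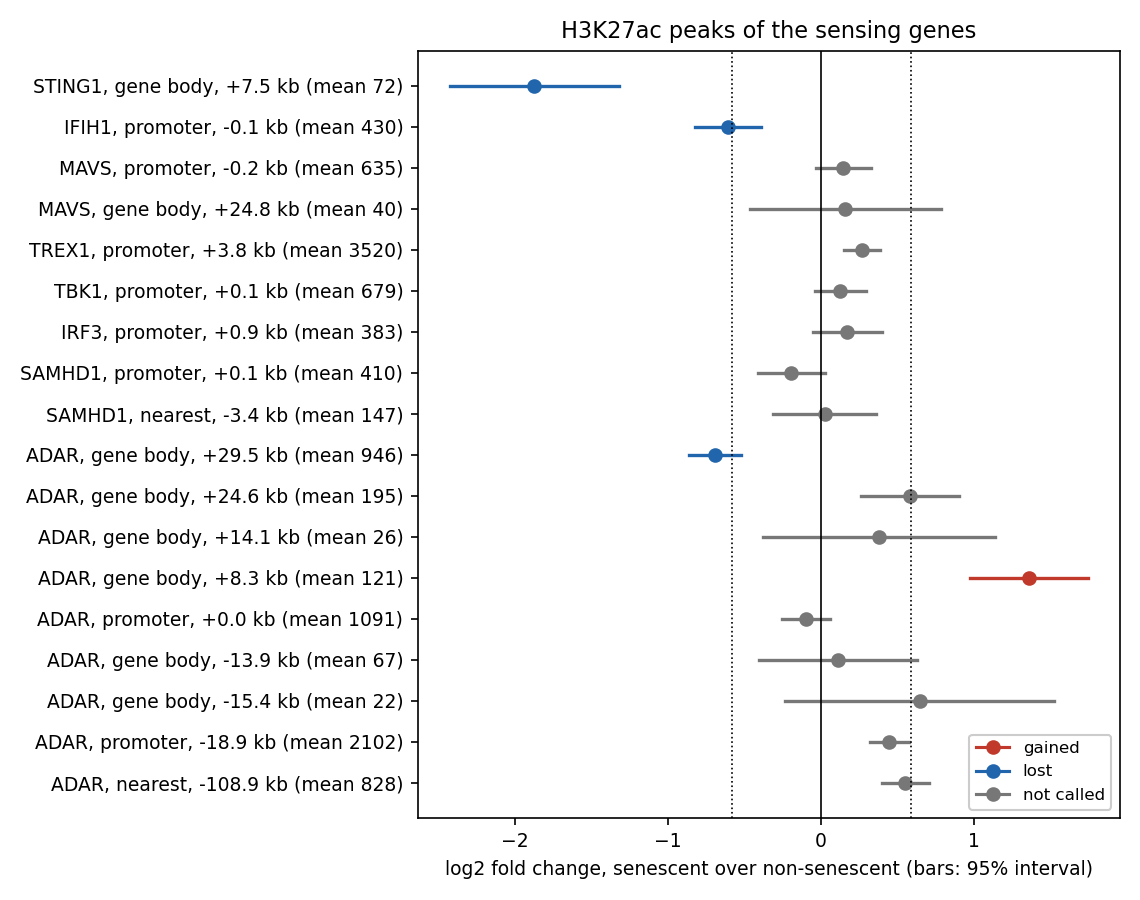
H3K27ac peaks linked to the 9 genes. The horizontal axis is the log2 fold change, senescent over non-senescent, with its 95% interval, labels give the gene, the class of the peak, its distance from the canonical start site and its mean normalized count, and dotted lines mark a fold change of 1.5. The gained ADAR peak (1.36) and the lost STING1 peak (-1.87) have intervals wholly beyond the dotted lines, while the lost IFIH1 and ADAR peaks (-0.61 and -0.69) have intervals that cross them.

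Promoter H3K27ac was present at 7 of the 9 genes, and at 13059 of all protein-coding genes (66.4%). CGAS and STING1 had no H3K27ac peak within 2 kb of a start site in these tables. Among the 7, only IFIH1 passed both thresholds, and it was lost. With 1 promoter peak per gene, the one with the highest mean count, 3.15% of all genes were gained and 8.94% were lost. The median log2 fold change of the 7 promoters was 0.15, and that of all genes was 0.04, with an interquartile range from -0.19 to 0.22. As levels per length, the promoter peaks ran from 124 mean normalized counts per kb at IRF3, through 164 at SAMHD1, 186 at TBK1, 190 at IFIH1, 239 at MAVS and 331 at TREX1, to 483 at ADAR. The median over all genes was 184, and ADAR stood at the 97.0 percentile. Since no value per library is given, the spread of these levels is not known, and neighbours in this order cannot be told apart.

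**Figure D2:**
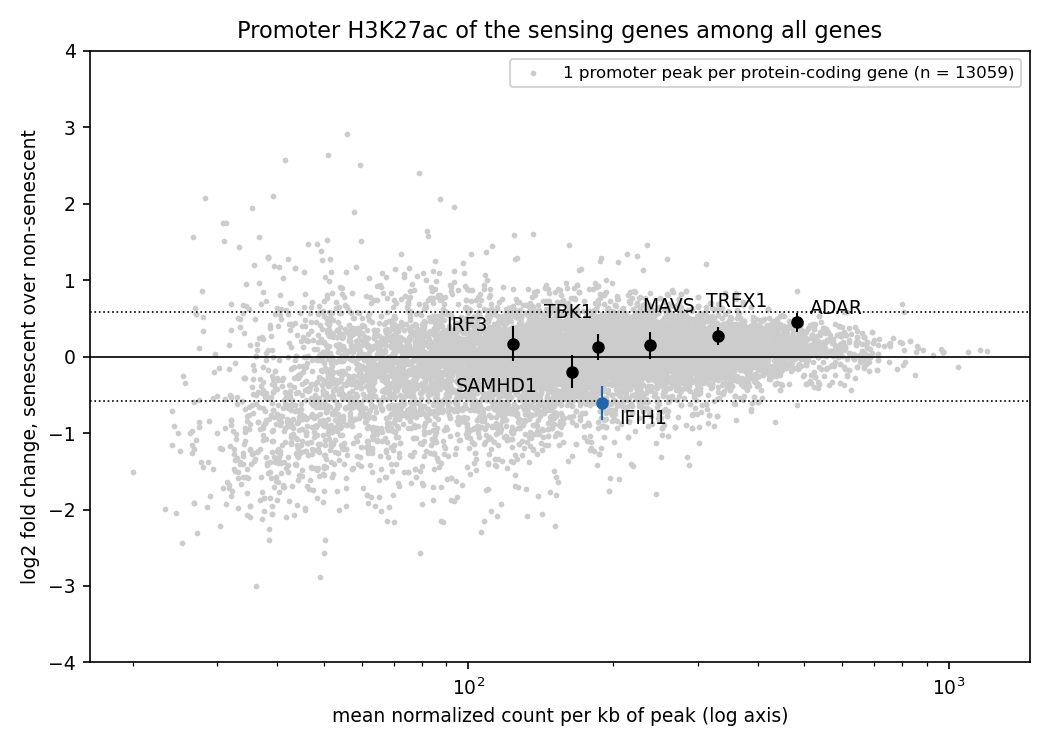
Promoter H3K27ac of the 7 genes that have it. The horizontal axis is the mean normalized count per kb of peak on a log axis, the vertical axis is the log2 fold change, senescent over non-senescent, error bars are 95% intervals, grey points are the 13059 genes with a promoter peak, and dotted lines mark a fold change of 1.5. IFIH1 (-0.61) lies just below the lower dotted line, and ADAR (0.45) lies highest of the 7 and furthest to the right.

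IFIH1, which encodes the RNA sensor MDA5, is at chr2:162267074-162318684 on the minus strand (hg38). Its promoter peak, chr2:162317613-162319880, was its only linked H3K27ac peak. It had a mean of 430.3 normalized counts, and the levels per state worked out to 520 in non-senescent and 341 in senescent cells. The log2 fold change was -0.61 (SE 0.11), 1.52-fold lower in senescent cells, with a deposited adjusted p of 3.76e-07. The 95% interval, from -0.82 to -0.39, spans the threshold of 1.5-fold. The peak was no longer called when it was tested against a fold change of 1.5. The peak covers the start sites of IFIH1 and of GCA, which encodes the calcium-binding protein grancalcin and is read in the opposite direction, so the change cannot be assigned to either gene.

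The stretch between the IFIH1 start site and the first exon of GCA is shown because it carries the elements searched for here. It is the 155 bases upstream of the start site, chr2:162318685-162318839, minus strand, with matches in capitals.
IFIH1: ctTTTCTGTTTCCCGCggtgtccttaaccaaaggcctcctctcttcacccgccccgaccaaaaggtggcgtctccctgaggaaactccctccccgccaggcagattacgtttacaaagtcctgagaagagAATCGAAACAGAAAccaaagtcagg
The second block of capitals lies from 25 to 12 bases before the start site and holds 2 matches of AANNGAAA and 1 of GAAANNGAA, both elements of interferon regulatory factors (IRF). The first block, from 153 to 140 bases before it, holds 1 match of each on the other strand and 1 of TTTCCCGC, an E2F element. Matches overlap one another within both blocks, and both strands were searched. Of 35116 promoter windows in the RefSeq table (GRCh38.p14), each from 250 bases before to 50 after a start site, 22.8% hold AANNGAAA, 8.11% hold GAAANNGAA and 1.63% hold TTTCCCGC on either strand. The IFIH1 window holds 4 matches of each IRF element, since further matches reach into the first exon of GCA, beyond the stretch shown. The table has windows for 6 of the 9 genes and none for CGAS, STING1 and IRF3. Among those 6, only IFIH1 has a match of an IRF element. The kappa B element GGGNNNNCC, found in 52.8% of all windows, is matched at TBK1, MAVS, SAMHD1 and at 1 of the ADAR windows.

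MAVS, the mitochondrial adaptor, is at chr20:3846799-3876123 on the plus strand. Its promoter peak, chr20:3845315-3847973, had a mean of 635 normalized counts and a log2 fold change of 0.15 (SE 0.09, adjusted p 0.1997). A small peak over exonic sequence in the last part of the gene, chr20:3871125-3872208, had a mean of 40.2 normalized counts and a log2 fold change of 0.16 (SE 0.32). Neither passed a threshold. The 95% interval of the promoter, from -0.03 to 0.32, lies within a fold change of 1.5 in both directions.

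On the DNA-sensing route, CGAS (chr6:73413515-73452297, minus strand) had no linked peak of either mark and no linked enhancer. The H3K27ac peak closest to its canonical start site lay 8070 bp away, at chr6:73460367-73463221, and had the start site of another gene, MTO1, as its own. STING1 (chr5:139475533-139482935, minus strand) had 1 linked H3K27ac peak, chr5:139474569-139475952. It overlaps the last 420 bp of the gene, in the last exon, and runs on beyond it, and the closest start site is that of SMIM33, 3565 bp away. Its mean was 71.6 normalized counts, and the levels per state worked out to 113 in non-senescent and 30.7 in senescent cells. The log2 fold change was -1.87 (SE 0.28), 3.67-fold lower in senescent cells (adjusted p 4.50e-10), the largest change in size among the 18 peaks. Its whole 95% interval, from -2.43 to -1.32, lies beyond a fold change of 1.5. The peak holds an enhancer of the non-senescent list, chr5:139474744-139475771, which overlaps no enhancer of the senescent list.

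TREX1 (chr3:48465811-48467645, plus strand), the DNA exonuclease, lies wholly within a broad promoter peak, chr3:48464750-48475390, that is 10640 bp wide. The peak also covers a start site of SHISA5 and overlaps ATRIP. It had the highest mean of the 18 peaks, 3520 normalized counts. The log2 fold change was 0.27 (SE 0.06, adjusted p 6.18e-05), 1.202-fold higher in senescent cells. The adjusted p passed and the fold change did not, and the 95% interval, from 0.15 to 0.38, stays under 1.5-fold. A peak of this width gives 1 value for all 3 genes, so TREX1 cannot be told apart from SHISA5 and ATRIP in it.

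The kinase TBK1 (chr12:64452090-64502114, plus strand) and the transcription factor IRF3 (chr19:49659569-49665875, minus strand) each had 1 linked H3K27ac peak, at the promoter. The TBK1 peak, chr12:64450403-64454051, had a mean of 679 normalized counts and a log2 fold change of 0.13 (SE 0.09, adjusted p 0.245). It also overlaps the neighbouring gene XPOT, with no start site of XPOT inside it. The IRF3 peak, chr19:49663383-49666485, had a mean of 383 normalized counts and a log2 fold change of 0.17 (SE 0.11, adjusted p 0.239). The IRF3 peak also covers a start site of BCL2L12 on the other strand. Neither peak passed a threshold, and the 95% intervals, from -0.04 to 0.30 at TBK1 and from -0.05 to 0.40 at IRF3, lie within a fold change of 1.5.

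SAMHD1 (chr20:36890229-36951893, minus strand), the deoxynucleotide hydrolase, had a promoter peak at chr20:36950358-36952853 and a second peak upstream at chr20:36954063-36956135. The promoter peak had a mean of 410.4 normalized counts and a log2 fold change of -0.20 (SE 0.11, adjusted p 0.157). The upstream peak had a mean of 147 normalized counts and a log2 fold change of 0.02 (SE 0.17). Neither passed a threshold. An enhancer of the non-senescent list, chr20:36955420-36956045, lies in the upstream peak and overlaps none of the senescent list, although the H3K27ac of that peak differed by only 1.02-fold.

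ADAR (chr1:154581695-154628013, minus strand), the RNA-editing enzyme, had 9 of the 18 linked H3K27ac peaks. Its transcripts start in 2 places 18784 bp apart. The 9 protein-coding transcripts of the upstream place start between 154627609 and 154628013, and 8 of them code for 931 residues. The 6 of the inner place start between 154608170 and 154608825 and include the canonical transcript, which codes for 1226 residues. Only that 1 of the 6 has this length and 2 code for 931 residues, so the inner place does not stand for the longer form alone. As background, the longer form is induced by interferon and reaches the cytoplasm, while the shorter form is made constitutively and stays mainly in the nucleus.

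The upstream promoter peak of ADAR, chr1:154624927-154629280, had a mean of 2102 normalized counts, with 1779 worked out for non-senescent and 2425 for senescent cells. Its log2 fold change was 0.45 (SE 0.07, adjusted p 1.42e-10), 1.36-fold higher in senescent cells and under the fold threshold. The inner promoter peak, chr1:154606741-154609639, had a mean of 1091 normalized counts, with 1128 and 1054 for the states. Its log2 fold change was -0.10 (SE 0.08, adjusted p 0.346). The 95% intervals, from 0.32 to 0.57 upstream and from -0.26 to 0.06 at the inner place, do not overlap. The difference between both log2 fold changes, 0.55, was not tested, since that needs values per library. Per length, the upstream peak had 1.28 times the mean count of the inner one.

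Regions of Rb binding specific to senescent cells were called by the authors with a threshold on the unadjusted p-value, from 2 libraries per state. Of these 2435 regions, 1 was linked to the 9 genes, and a single region called this way may be a false positive. It lies at chr1:154628015-154628357, 2 bp from the outermost upstream start site of ADAR and within the upstream promoter peak. Over all genes, 308 (1.57%) had such a region within 2 kb of a start site. The 250 bases next to that start site, chr1:154628014-154628263, minus strand, are shown because 249 of them lie in the Rb region, and they hold no match of any of the IRF, kappa B or E2F (TTTGGCGC or TTTCCCGC) elements on either strand.
ADAR: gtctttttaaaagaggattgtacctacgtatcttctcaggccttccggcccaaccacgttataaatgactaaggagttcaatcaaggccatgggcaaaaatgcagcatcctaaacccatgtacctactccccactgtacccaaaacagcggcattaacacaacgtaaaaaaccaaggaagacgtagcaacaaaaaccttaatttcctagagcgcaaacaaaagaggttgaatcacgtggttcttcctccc
In all 35116 promoter windows, TTTGGCGC was found in 0.652% and TTTCCCGC in 1.63%, so most windows lack these E2F elements. The lack of a match says only that these letters are not in the bases shown.

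The gained ADAR peak, chr1:154599151-154600720, lies inside the gene centred 8.25 kb downstream of the canonical start site, outside the exons of the canonical transcript. It had a mean of 121 normalized counts, with 68.1 worked out for non-senescent and 175 for senescent cells. The log2 fold change was 1.36 (SE 0.20, adjusted p 9.02e-11), 2.56-fold higher in senescent cells, and its whole 95% interval, from 0.97 to 1.74, lies beyond 1.5-fold. It overlaps no listed enhancer of either state. Further along the gene, chr1:154582189-154585081 over its last exons had a mean of 195 normalized counts and a log2 fold change of 0.58 (SE 0.16, adjusted p 0.00154). At 1.499-fold it was the peak just under the fold threshold, and it passed once the trend with GC content was removed. The other 3 peaks inside ADAR had means from 21.7 to 67.1 normalized counts, log2 fold changes from 0.11 to 0.64, and none passed.

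The lost ADAR peak, chr1:154575559-154581719, touches only the last 25 bp of the gene and lies mostly over the neighbouring gene CHRNB2, a nicotinic receptor subunit, whose start site is 7724 bp away. It had a mean of 946 normalized counts, with 1168 worked out for non-senescent and 723 for senescent cells. The log2 fold change was -0.69 (SE 0.09, adjusted p 2.32e-14), 1.62-fold lower in senescent cells. It holds an enhancer of the non-senescent list, chr1:154576359-154581719, that overlaps none of the senescent list. At the other end, chr1:154714673-154719528 lies 86660 bp upstream of the nearest ADAR start site, inside KCNN3. It had a mean of 828 normalized counts and a log2 fold change of 0.55 (SE 0.08, adjusted p 7.35e-11), 1.47-fold higher and just under the fold threshold. It is in the enhancer lists of both states.

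**Figure D3:**
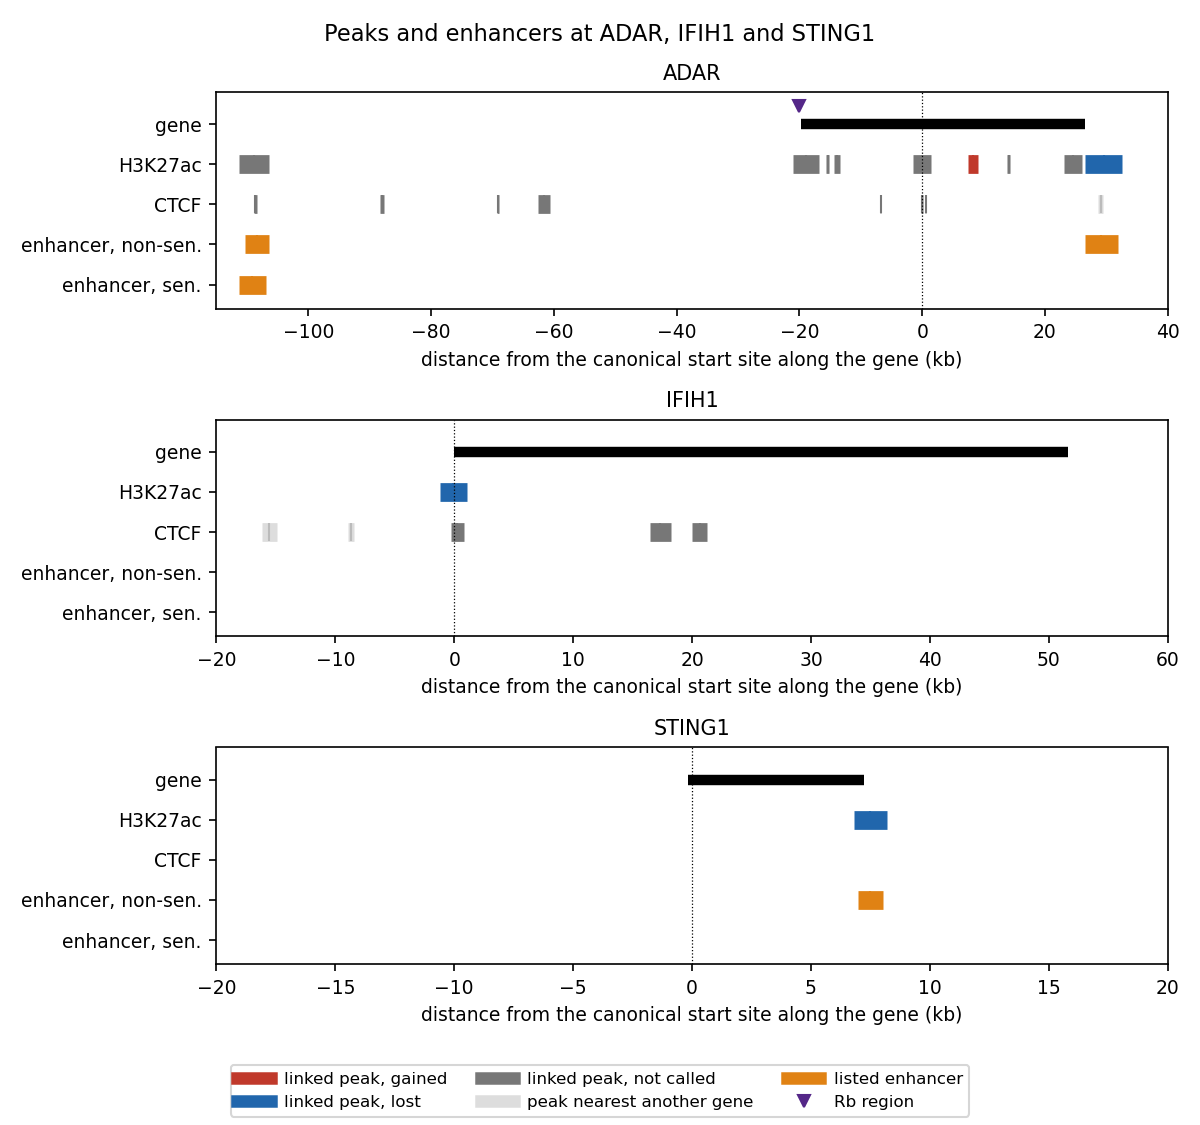
Maps of ADAR, IFIH1 and STING1, to scale. The horizontal axis is the distance in kb from the canonical start site along the gene, the tracks are the gene, the H3K27ac and CTCF peaks, the enhancers listed for each state and the Rb region. At ADAR, the gained peak lies between the canonical start and the end of the gene, the lost peak lies at the end, and the Rb region lies at the upstream start. At STING1 the only linked peak lies at the end of the gene and holds an enhancer of the non-senescent list.

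Of the 5 listed enhancers linked to the 9 genes, the 4 of the non-senescent list belong to ADAR, SAMHD1 and STING1, and the 1 of the senescent list belongs to ADAR. The distal ADAR enhancer was the only one to overlap an enhancer of the other state, chr1:154714673-154718493 in the non-senescent list with chr1:154715108-154719528 in the senescent list. In the whole series, 70.6% of non-senescent and 79.5% of senescent enhancers overlapped one of the other list. With 4 enhancers and 1 enhancer, these shares cannot be set against those of the 9 genes.

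For CTCF, 0 of the 18 linked peaks were gained and 1 was lost at the study's thresholds (a fold change above 1.5 with an adjusted p under 0.2). Over all CTCF peaks with an adjusted p, 2.99% were gained and 4.28% were lost. At an unadjusted p under 0.05, 0 of the 18 were higher and 4 were lower in senescent cells, beside 7.63% and 8.33% of all CTCF peaks. All 4 were weak, with means from 16.7 to 37.8 normalized counts. Of all CTCF peaks with a mean under 50, 59.8% had a log2 fold change below 0, beside 43.7% of the stronger ones. The shares at an unadjusted p under 0.05 were not worked out for weak peaks alone. An adjusted p was deposited for 12 of the 18, since 6 peaks of SAMHD1 and ADAR with low counts had none, and these could not be called. No CTCF peak was linked to CGAS, STING1 or TBK1, and the closest one to the TBK1 canonical start site lay 96.7 kb away.

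The lost CTCF peak was at the IRF3 promoter, chr19:49664406-49664850, centred inside the gene 1229 bp from the canonical start site and covering other IRF3 start sites. Its mean was 21.9 normalized counts, with 29.8 worked out for non-senescent and 13.9 for senescent cells. The log2 fold change was -1.10 (SE 0.47, adjusted p 0.172), 2.14-fold lower, and the 95% interval runs from -2.02 to -0.18. Over all 11061 CTCF peaks at promoters the median log2 fold change was -0.17, beside -0.01 over all CTCF peaks. The IRF3 peak was no longer called at an adjusted p under 0.05, nor when p-values were adjusted over all peaks. In that last setting a peak at the inner ADAR promoter, chr1:154608023-154608337, was called lost in its place. That peak had a mean of 16.7 normalized counts and a log2 fold change of -1.22 (SE 0.51). The deposited table gives it no adjusted p.

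**Figure D4:**
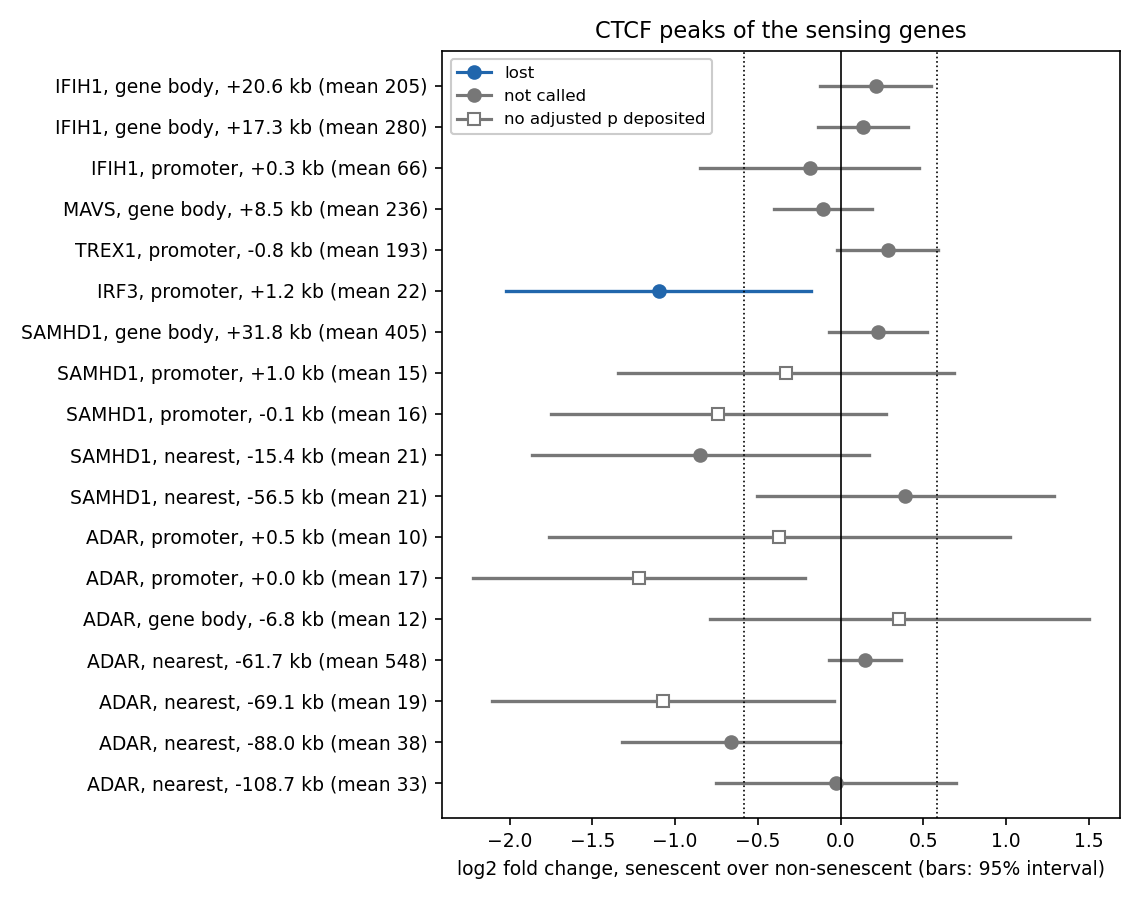
CTCF peaks linked to the 9 genes, drawn as for H3K27ac. The horizontal axis is the log2 fold change, senescent over non-senescent, with its 95% interval, open squares have no deposited adjusted p, and dotted lines mark a fold change of 1.5. The 7 peaks with a mean of at least 50 normalized counts lie between -0.19 and 0.28, and the 11 weaker peaks have wider intervals, with the IRF3 peak (-1.10) the one called.

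The strongest linked CTCF peaks were chr1:154668851-154670828 upstream of ADAR (mean 548 normalized counts, log2 fold change 0.15, SE 0.11), chr20:36918755-36920987 within SAMHD1 (mean 405, log2 fold change 0.23, SE 0.15) and chr2:162300488-162302197 within IFIH1 (mean 279.7, log2 fold change 0.14, SE 0.14). MAVS had 1 peak in its gene body, chr20:3854466-3856201 (mean 236, log2 fold change -0.11, SE 0.15), and TREX1 had 1 at its promoter, chr3:48464827-48466076 (mean 193, log2 fold change 0.28, SE 0.16). None of these passed a threshold. A second IFIH1 peak, chr2:162297414-162298696, had a mean of 205 normalized counts and a log2 fold change of 0.21 (SE 0.17). The 7 linked peaks with a mean of at least 50 normalized counts had a median log2 fold change of 0.15, beside 0.05 over all such peaks, and 2 of the 7 were below 0, beside 43.7% of all such peaks. The 11 weaker ones had a median of -0.66, beside -0.14 over all peaks that weak, and 9 of the 11 were below 0, beside 59.8% of all peaks that weak. Their SEs ran from 0.34 to 0.71.

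The CTCF core consensus, a motif of 12 bases searched on both strands, was found with at most 1 mismatch in 4 of the 7 stronger peaks and in 0 of the 11 weaker ones. The shares over all CTCF peaks were 62.0% of those with a mean of at least 50 normalized counts and 30.2% of the others. The matches in introns are shown with 12 bases on each side, core in capitals, because they mark where in these peaks the motif lies. All read from the minus strand, at chr2:162298109-162298144, chr2:162301361-162301396 and chr20:36919887-36919922 (hg38).
IFIH1 farther peak: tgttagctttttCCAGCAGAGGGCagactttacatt
IFIH1 nearer peak: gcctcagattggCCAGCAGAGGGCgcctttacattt
SAMHD1: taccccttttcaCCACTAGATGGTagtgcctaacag
Both IFIH1 cores have 0 mismatches and hold the same 12 bases, and the SAMHD1 core has 1 mismatch. No match was found at the IRF3 peak, which says only that these letters are not in that window.

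Around the 9 genes, 70 other genes of nucleic acid sensing were looked up, and 52 had a promoter H3K27ac peak. Of these 52, 2 were gained (3.85%) and 9 were lost (17.3%), beside the 3.15% and 8.94% of all genes given above. Their median log2 fold change was -0.08. Start sites of other genes inside these peaks are not given here, so a change cannot be assigned to the named gene alone. No set test was run, and genes were not chosen for their values, but the list was drawn up with earlier results of these data known.

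Among RNA sensors, which detect foreign or unedited RNA as MDA5 does, 7 of 13 had a promoter peak, 0 were gained and 3 were lost. OAS3, an oligoadenylate synthetase, fell the most of the 52, with a log2 fold change of -1.502 (SE 0.22, adjusted p 3.15e-10). DDX60, a helicase cofactor of RNA sensing, fell by 1.27 (SE 0.31) at a mean of only 41.0 normalized counts. EIF2AK2, the kinase PKR, fell by 0.61 (SE 0.11), nearly the value of IFIH1. RIGI, the sensor of uncapped RNA ends, had a log2 fold change of -0.35 (SE 0.18) and did not pass.

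Among nucleases and other restraints, 11 of 12 had a promoter peak, 0 were gained and 3 were lost. RNASEH2A, the catalytic subunit of RNase H2, fell by 1.12 (SE 0.15, adjusted p 2.75e-13) and is also needed in DNA replication. LSM11, which acts in histone mRNA processing, fell by 0.70 (SE 0.16), and DNASE2, the lysosomal DNase, fell by 0.82 (SE 0.30).

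The remaining groups held few calls. Of 10 DNA sensors with a promoter peak, 0 were gained and 1 was lost, PRKDC, the DNA-dependent kinase of double-strand break repair (-0.59, SE 0.10), which passed the fold threshold at 1.505-fold. Of 13 adaptors, kinases and ligases, IKBKE, a kinase related to TBK1, was gained (0.69, SE 0.12) and TRIM56, a ubiquitin ligase, was lost (-0.75, SE 0.19). Of 9 genes of cGAMP handling and STING traffic, SURF4, a cargo receptor that returns STING to the endoplasmic reticulum, was gained (0.76, SE 0.06, adjusted p 1.45e-39) at a mean of 6491 normalized counts. The SURF4 peak is 23611 bp wide, with 275 normalized counts per kb, so this 1 value may cover other genes too. SLC19A1, the reduced folate carrier that also imports cyclic dinucleotides, was lost (-0.72, SE 0.20). Of 8 interferons and interferon-induced genes, 2 had a promoter peak (IFIT1 and IFIT2) and none passed.

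**Figure D5:**
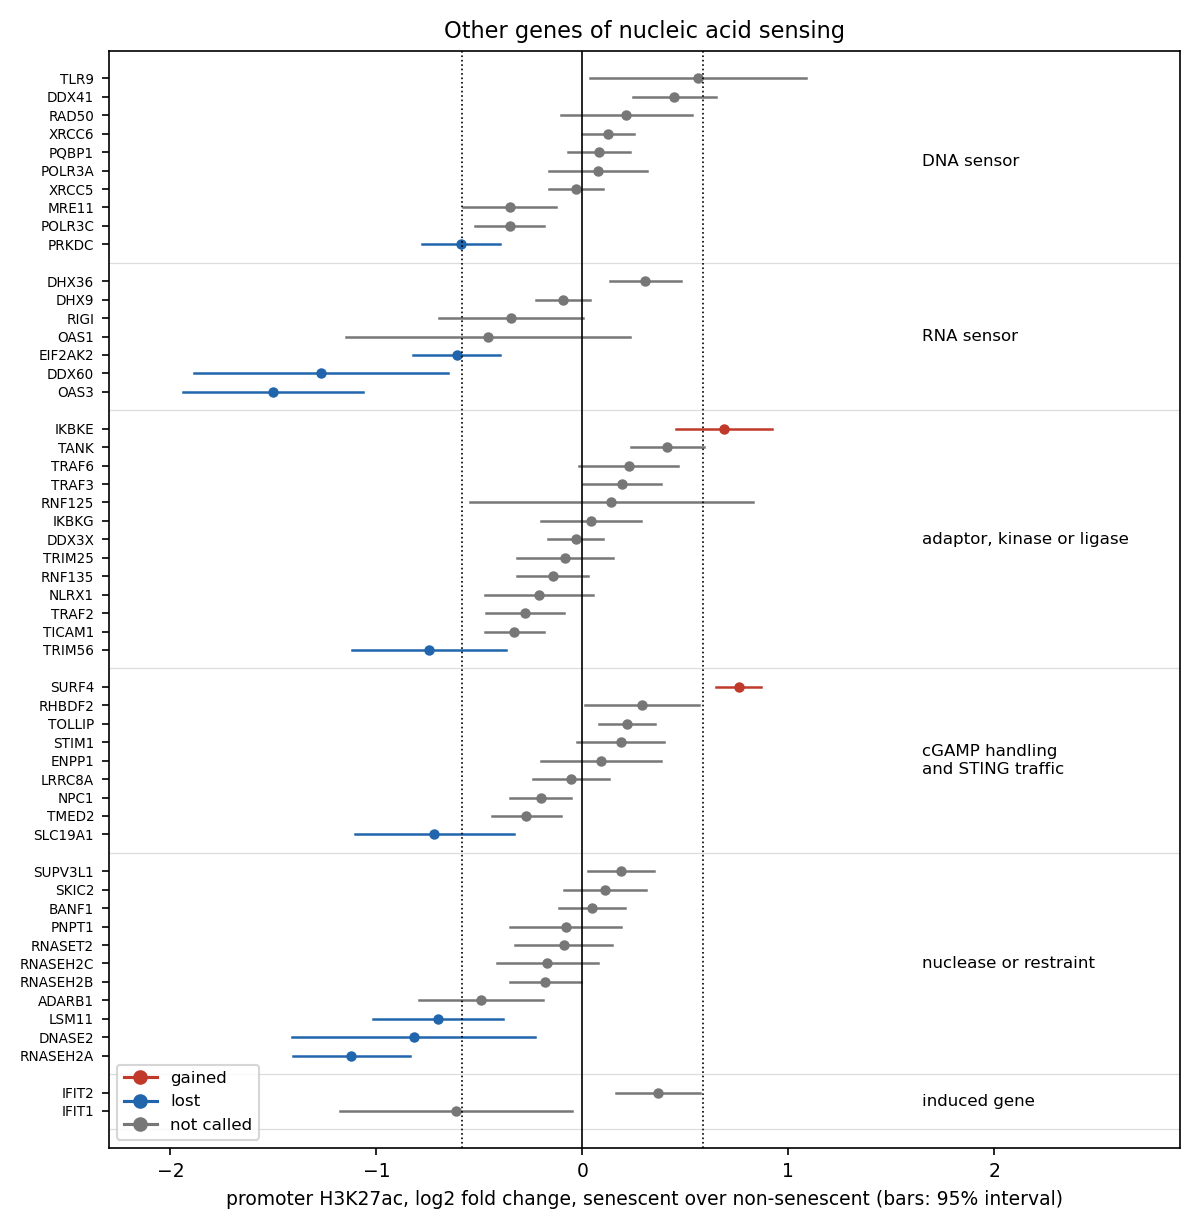
Promoter H3K27ac of 52 other genes of nucleic acid sensing, grouped by role. The horizontal axis is the log2 fold change, senescent over non-senescent, with its 95% interval, and dotted lines mark a fold change of 1.5. The 9 lost genes include OAS3 (-1.502), DDX60 (-1.27) and RNASEH2A (-1.12), and the 2 gained genes are SURF4 and IKBKE.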

How the data were processed

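ChIP-seq libraries of H3K27ac, CTCF, H3K4me1 and Rb with their inputs (40 in all) were assigned to states by their labels. The authors trimmed reads (Trim Galore), aligned to hg38 (Bowtie2), called peaks against input with HOMER (H3K27ac) or MACS2 (CTCF), and compared raw reads in peaks with DESeq2. Versions and the merging of replicates are not given in the sources used here. The deposited mean signal is an average over libraries of counts divided by size factors. The deposited log2 fold changes and standard errors are senescent over non-senescent, and the deposited score is their quotient. The deposited p-values are from the Wald test, adjusted by Benjamini-Hochberg, with no adjusted p for 11972 CTCF peaks (23.3%). A shift of a whole mark is hidden by size factors. These columns are of the authors' own comparison and were read as deposited, since the tables hold no value, and so no depth, per library. The precision of each value is its standard error. The methods place a filter for the CTCF motif ahead of this comparison. Whether the deposited table holds the filtered peaks alone is not stated. Enhancers are the authors' regions with H3K27ac and H3K4me1 outside promoters. Rb regions are MACS2 peaks of senescent over non-senescent libraries, called with a threshold on the unadjusted p-value. Both were deposited as positions alone.

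Peaks were linked to genes with GENCODE 44 (same build, with 0 regions past a chromosome end). Intervals are 95% normal intervals from the deposited standard errors. Coordinates are as deposited. Python 3.11.15, pandas 2.3.3, SciPy 1.17.1, statsmodels 0.14.6 and pysam 0.24.0 were used, and the calls were tested on simulated data. Named are all 9 genes, every linked peak past the thresholds, the strongest CTCF peak per gene, pathway genes whose promoter peak passed (at most 12) and neighbours with a start site in, or bordering, a shared promoter peak. Other names were chosen after their values were seen. The members and lists were chosen with earlier results of these data known. An item of the pathway list is not reported here.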

Additional observations from a re-analysis of the deposited data

How the results depend on the processing

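No paired analysis was possible because the deposited tables hold no value per library, and for the same reason leaving out each replicate in turn was not run. Of 53 comparisons of the planned settings with the reported counts, 43 were within 1.5 times. These include settings that left the H3K27ac values unchanged, CTCF gains of 0 in every setting, and equal counts where a different peak was called. The tally is therefore not a measure of robustness. For H3K27ac, 1 gain became 2 with the GC trend removed (the added peak is chr1:154582189-154585081 at ADAR). The 3 losses became 1, the STING1 peak, at a fold change above 2 and in a test against a fold change of 1.5. In that test the IFIH1 promoter was no longer called (0 of 7 promoters called). The CTCF loss at IRF3 became 0 at an adjusted p under 0.05, in the test against 1.5-fold, with a mean of at least 50 normalized counts and with the GC trend removed. With p-values adjusted over all peaks and under both centrings the count stayed at 1, but the peak called was the inner promoter of ADAR (adjusted p 0.193 to 0.1998) and not IRF3. Each of these settings adjusts p-values over all peaks, so it gives the ADAR peak an adjusted p, which was missing as deposited. The deposited Wald p was 0.0175 at that ADAR peak and 0.0196 at the IRF3 peak. No setting gave a CTCF gain among the 18 peaks. Enhancers shared between states (2 counting both lists) became 0 within 50 kb or with start sites of any gene, because the distal ADAR enhancer is then no longer linked. Counting, as chosen after seeing the data, all peaks within 100 kb whichever gene is nearest, 6 of 76 H3K27ac peaks were gained (7.89%) and 5 lost (6.58%), both under the shares over all H3K27ac peaks (9.47% and 13.1%), and of 56 CTCF peaks with an adjusted p, 0 were gained and 5 lost (8.93%, beside 4.28% over all). Centring on promoter peaks shifts CTCF by 0.17 on the log2 scale and takes the share of gains among all CTCF calls from 41.1% to 72.8%; a mean of at least 50 normalized counts takes it to 51.9% and a fold change above 2 to 20.7%. No promoter log2 fold change of the 7 genes changed sign, but several settings leave these values as they are. The H3K27ac centrings shift them by only 0.0075 and 0.033. The mean of both ADAR promoters is 0.17 against 0.45 for the stronger one.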

Other observations

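Peaks around the 9 genes that are nearest to another gene were counted within 100 kb of each canonical start site, a window chosen after seeing the data. Around CGAS, 4 H3K27ac peaks and 4 CTCF peaks lay in this window. One of those H3K27ac peaks was gained, chr6:73515308-73515808 near EEF1A1 (mean 22.4 normalized counts, log2 fold change 1.15, SE 0.48), and 0 CTCF peaks were called. Around STING1, 6 other H3K27ac peaks had log2 fold changes from 0.07 to 0.47 with 0 called, so the peak at the end of the gene was the only one of 7 called there. A CTCF peak near PROB1, chr5:139392242-139394794, was lost (-0.66, SE 0.16, adjusted p 0.00401). Around IFIH1, 2 H3K27ac peaks beyond GCA were gained, chr2:162415231-162416630 (1.34, SE 0.31) and chr2:162417166-162419158 (0.77, SE 0.17), 58793 and 60728 bp from the closest start site, while the promoter shared by IFIH1 and GCA was lost. A weak CTCF peak on the GCA side of that promoter, chr2:162327094-162327651, was also lost (mean 37.4 normalized counts, -0.88, SE 0.35, adjusted p 0.140). Around MAVS, 0 of 16 H3K27ac peaks were called and 2 of 11 CTCF peaks were lost, both near ADISSP. Around TBK1 only 2 H3K27ac peaks and 1 CTCF peak lay in the window, and 0 were called. Around TREX1, 1 of 14 H3K27ac peaks was lost, chr3:48451343-48452436 near ATRIP (-0.69, SE 0.25), and 1 was gained, chr3:48477517-48478017 near SHISA5 (1.98, SE 0.69, mean 10.3 normalized counts). Around IRF3, 1 of 10 was gained, chr19:49579578-49586650 at PRRG2 (0.73, SE 0.09, adjusted p 1.57e-14). Around SAMHD1, 1 of 5 was lost, chr20:36886544-36887491 at TLDC2 (-0.96, SE 0.34). Around ADAR, the called H3K27ac peaks were the 2 linked to it. Over all 9 windows, the shares of H3K27ac peaks gained (7.89%) and lost (6.58%) were under those of all peaks (9.47% and 13.1%).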
